A study of Mus musculus with 6 samples.

Results

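The potassium channel genes are the symbols that begin with Kcn, go on in lower-case letters and end in a number. This pattern, which uses no measured value, took 92 of 33924 symbols in the count tables: 40 pore-forming subunits of voltage-gated channels, 15 inward rectifiers, 14 tandem-pore channels, 8 pore-forming subunits of calcium- or sodium-activated channels and 15 auxiliary subunits. The auxiliary subunits form no pore, so the set is one of channel genes and their named partners. Families follow symbol prefixes alone, and Kcnu1 was placed with the calcium- and sodium-activated channels in this way. Kcnrg and Kcne1l end in a letter, so the pattern leaves them out, and they were counted with other partners instead.

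RNA was sequenced from E14, a mouse embryonic stem cell line, in 3 libraries labelled control (wild type) and 3 labelled Rif1-KO. Rif1 encodes a protein that times DNA replication and steers the repair of DNA breaks, and the series compares libraries by whether their label names a Rif1 knockout. For all 6 libraries the labels give growth on 0.1% gelatin in 2i medium, 0.1 µM 4-hydroxytamoxifen for 2 days and 1 further day without it, and all 6 are labelled Day 0. The column names in the file headers, however, start with mRif in all 6 but carry TAM in the Rif1-KO-labelled libraries and 2i in the control libraries, so drug exposure and genotype cannot be told apart here. How Rif1 was disrupted, and whether the cells are 1 clone, is not given in the sources used here. Nothing in the labels ties replicates to separate cultures, and the p-values therefore cover only the spread among these libraries, which may be technical.

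Potassium channels let potassium ions leave the cell and hold its membrane at a negative voltage. Voltage-gated channels open on depolarisation and end the action potential of nerve and muscle, inward rectifiers and tandem-pore channels set the resting voltage, and calcium-activated channels follow calcium inside the cell. Most members are known from brain, heart, kidney, pancreas or sensory tissue, and embryonic stem cells are not excitable in the way that nerve and muscle cells are. Levels in stem cells are therefore mostly those of genes outside their best-known tissue.

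Total counts ran from 8383632 to 10980777 per library, and the groups lay apart on the first principal component (76.9% of the variance). Rif1 read 673, 657 and 700.1 CPM in control against 602, 604 and 664 CPM under the Rif1-KO label (log2FC −0.12 ± 0.049, adjusted p = 0.0509 in edgeR's quasi-likelihood fit, adjusted by Benjamini-Hochberg over all tested genes). The targeted gene was therefore still read at close to its control level, and a count over the whole gene does not check a deletion within it. The call at Rif1 changed under 8 of 14 other ways of processing, with adjusted p from 2.57e-06 to 0.212, so the groups are named by their labels. Of 9 stem cell markers in the table, all tested, 3 rose, 3 fell and 3 did not pass. Over all tested genes 26.1% were called higher and 24.8% lower. Sox2 (log2FC −0.54 ± 0.049, adjusted p = 1.78e-08), Fgf4 and Tdgf1 fell, while Dppa5a (log2FC 0.46 ± 0.085, adjusted p = 0.000136), Klf4 and Nanog rose. The 9 markers summed to 5341 to 5623 CPM in control and 5206 to 5579 CPM in the Rif1-KO-labelled libraries. CPM are counts relative to the scaled library total. Log2 fold changes (log2FC) set the Rif1-KO-labelled libraries over control and carry standard errors, and each ± on a CPM value is the SD of 3 libraries.

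Most potassium channel genes were barely read. Of the 92, 7 had no count in any library, 43 had counts but were removed by the filter on low counts, and 42 (45.7%, against 42% of all symbols) were tested. Only 8 members had a mean of at least 10 CPM over the 6 libraries, and these 8 made up 57.6% of the CPM summed over all members. The median mean level of the tested members was 3.87 CPM, against 26.9 CPM over all tested genes. All 92 together summed to 344, 340.3 and 344 CPM in the control libraries and to 301, 299.9 and 307 CPM in the Rif1-KO-labelled libraries, so the summed level was lower in the latter without overlap. On net this difference lay in the 8 members with at least 10 CPM, at 206.5 ± 2.82 CPM in control against 165.5 ± 1.81 CPM under the Rif1-KO label. Among them Kcnh3 alone went from 37.04 to 17.2 CPM. The 34 tested members under 10 CPM stood at 127 ± 0.593 and 122.9 ± 3.53 CPM, with overlap. In bulk libraries, fewer cells of a type and less RNA per cell cannot be told apart.

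**Figure D1:**
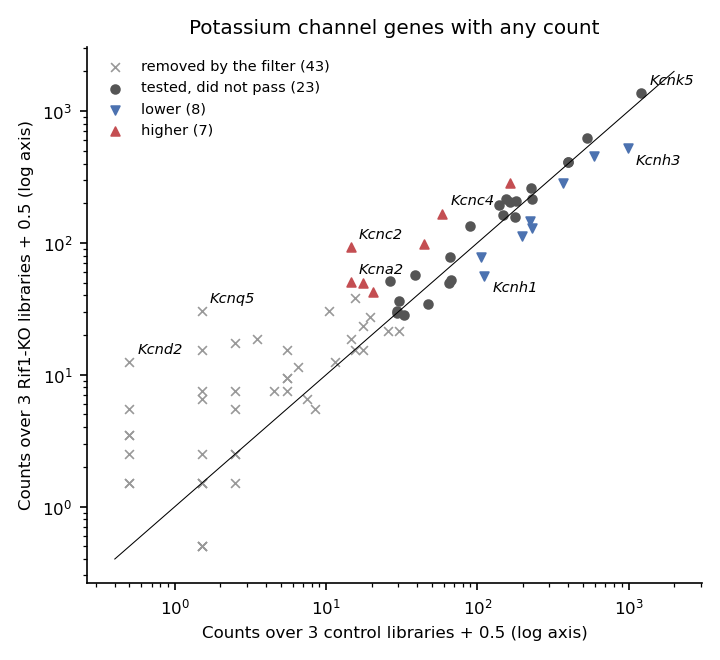
Counts summed over 3 control libraries (horizontal) and 3 libraries labelled Rif1-KO (vertical), both plus 0.5 on log axes, for 81 potassium channel genes with any count; the line marks equal counts, not scaled for library size. Triangles mark the 7 genes called higher (up) and 8 called lower (down), circles 23 tested genes that did not pass, and crosses the 43 genes with counts that the filter removed. Genes called higher had 14 to 165 control counts and the plotted genes called lower 105 to 984.

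Of the 42 tested members, 7 rose, 10 fell and 25 did not pass at an adjusted p under 0.05 (edgeR, adjusted over 14250 genes). That is 40.5% called, where 50.9% of all tested genes were called. By direction the background was 26.1% higher and 24.8% lower. Among the 34 tested members with a mean under 10 CPM, 7 rose and 6 fell, or 38.2%, against 36.8% of 4429 tested genes at that level (24.3% higher and 12.5% lower). The share of calls among the members was thus near that of other genes read as little. The 8 members with at least 10 CPM gave 4 calls, all lower. That is 50% called, against 50.9% of tested genes at any level, of which 24.8% were called lower. These 8 are too few to compare directions.

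Libraries of the groups did not overlap at 21 of 42 tested members (50%), against 57.2% of all tested genes. Each of the 17 called members was among these 21, and the other 4 were Kcnip2, Kcnh7, Kcnt1 and Kcnab1. With a 2-fold minimum, 4 of the 42 tested members rose (background 5.25%) and 3 of the 42 fell (background 1.31%). Of the 4, Kcnc2, Kcna2 and Kcnj11 passed the filter on low counts only through the Rif1-KO-labelled libraries, where they had to be higher. Kcnc4 met its limit in both groups. These background shares cover genes at every level, while the members were mostly read less, and the counts are too few to compare. Over the tested members the median log2FC was −0.13 and the mean −0.00058, where the median of all tested genes was 0.0035. That median was −0.040 without control replicate 1, −0.085 without control replicate 2, −0.058 without Rif1-KO replicate 1 and −0.087 without Rif1-KO replicate 3, and it turned to 0.041 without a filter on low counts, where the median of all genes was 0.035.

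The filter bears on direction. It asks for 1.09 CPM in at least 3 libraries, and 30 of the 42 tested members reached that in every library of both groups. Among these 30, 3 rose and 10 fell. A further 6 reached it throughout the Rif1-KO-labelled libraries alone, and 4 of those are among the 7 that rose, namely Kcnc2, Kcna2, Kcnj11 and Kcnd3. These 4 had to be higher there to be tested, so their direction is no separate observation. Kcnh4 and Kcnq1 reached it throughout control alone, and Kcng1, Kcnh8 and Kcna7 in libraries of both groups but throughout neither, and none of these genes passed the test.

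**Figure D2:**
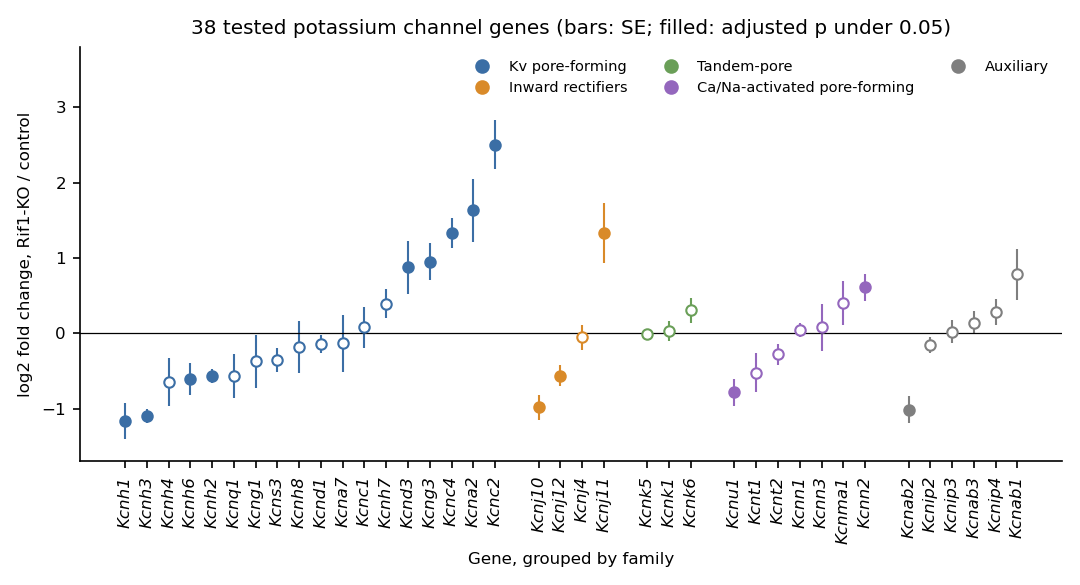
Log2 fold change of libraries labelled Rif1-KO over control for 38 tested potassium channel genes, grouped by family; bars are standard errors, filled symbols have an adjusted p under 0.05. Kcnh1 and Kcnh3 lie lowest and Kcnc2 highest, and none of the 3 tandem-pore genes passed.

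Voltage-gated pore-forming subunits held 11 of the 17 calls and 22 of the 42 tested members. Of 40 genes, 22 were tested, 5 rose, 6 fell and 11 did not pass, with a median log2 fold change of −0.27. The share called was 50%, against 50.9% of all tested genes and 36.8% of those with a mean under 10 CPM. The summed level of the 40 genes, tested or removed, was 156 ± 2.34 CPM in control against 126 ± 5.51 CPM under the Rif1-KO label (SD, n = 3). The libraries of the groups did not overlap in that sum, as the plot of summed CPM by family shows.

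Within them the Kcnh genes, of the ether-à-go-go type, lay mostly below control. Of 8 genes 7 were tested, 4 fell and 3 did not pass, where 24.8% of all tested genes and 12.5% of those under 10 CPM were called lower. The 8 summed to 73.7 ± 2.15 CPM in control against 43.4 ± 2.23 CPM under the Rif1-KO label. This difference was close to that of all 40 voltage-gated genes, and Kcnh3 alone made up its larger part. Kcnh3 read 37.4, 34.99 and 38.7 CPM in control against 17.4, 19.2 and 15.1 CPM under the Rif1-KO label. Every control library was above every library labelled Rif1-KO, and Kcnh3, a channel of forebrain neurons, fell from 37.04 ± 1.89 to 17.2 ± 2.06 CPM (SD, n = 3; log2FC −1.10 ± 0.090, adjusted p = 4.45e-09). An exon of Kcnh3 overlaps one of Mcrs1 on the opposite strand in GENCODE's mouse annotation, and without a stated strand setting reads there cannot be told apart. Mcrs1 itself went from 44.8 ± 1.13 to 40.4 ± 3.59 CPM and did not pass (log2FC −0.14 ± 0.072, adjusted p = 0.104).

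Kcnh1 read 5.41, 3.52 and 3.54 CPM in control against 1.81, 2.22 and 1.53 CPM under the Rif1-KO label. Kcnh1, the founding mouse ether-à-go-go channel, was 2.24-fold lower (log2FC −1.16 ± 0.24, adjusted p = 0.000502), again without overlap. Kcnh2 read 22.7, 22.2 and 21.9 CPM in control against 15.4, 13.9 and 15.9 CPM under the Rif1-KO label. Kcnh2, the channel that repolarises the heart's action potential, fell by less (log2FC −0.57 ± 0.094, adjusted p = 4.35e-05) but with close replicates. Kcnh6 read 4.43, 4.01 and 3.43 CPM in control against 2.26, 3.23 and 2.297 CPM under the Rif1-KO label. The fall of Kcnh6, a relative of Kcnh2, was the least secure of the 4 (log2FC −0.61 ± 0.22, adjusted p = 0.0237). It did not pass among others with DESeq2 (adjusted p = 0.0949) or without control replicate 1 (0.0943) or control replicate 2 (0.0532). The call was also lost when Rif1-KO replicate 1 (adjusted p = 0.101) was left out, and when Rif1-KO replicate 3 was (0.0673).

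The other tested Kcnh genes did not pass. Kcnh4 had a log2 fold change of −0.64 ± 0.32 (adjusted p = 0.097) and passed only without Rif1-KO replicate 3 (log2FC −0.89 at adjusted p = 0.0483). Kcnh8 had −0.18 ± 0.35 (adjusted p = 0.708). Kcnh7 was the 1 tested gene of the group with a positive value, 0.39 ± 0.20 (adjusted p = 0.0995). Kcnh5, removed by the filter, had 0 and 3 counts.

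Promoters of Kcnh1 and Kcnh6 are shown for 2 of the genes that fell, from RefSeq on GRCm38.p6, 250 bases before to 50 after the start site, 5′ to 3′ on the gene's strand, with each CG dinucleotide in capitals. The Kcnh1 window is chr1:192190527-192190826, plus strand, and the Kcnh6 window is chr11:106007898-106008197, plus strand. Kcnh3 is not in that table.
Kcnh1: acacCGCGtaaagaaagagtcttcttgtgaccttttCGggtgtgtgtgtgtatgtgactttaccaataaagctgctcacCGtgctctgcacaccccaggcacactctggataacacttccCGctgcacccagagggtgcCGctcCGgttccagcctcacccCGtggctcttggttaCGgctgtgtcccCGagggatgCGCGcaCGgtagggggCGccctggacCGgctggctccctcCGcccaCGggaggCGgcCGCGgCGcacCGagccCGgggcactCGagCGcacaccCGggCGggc
Kcnh6: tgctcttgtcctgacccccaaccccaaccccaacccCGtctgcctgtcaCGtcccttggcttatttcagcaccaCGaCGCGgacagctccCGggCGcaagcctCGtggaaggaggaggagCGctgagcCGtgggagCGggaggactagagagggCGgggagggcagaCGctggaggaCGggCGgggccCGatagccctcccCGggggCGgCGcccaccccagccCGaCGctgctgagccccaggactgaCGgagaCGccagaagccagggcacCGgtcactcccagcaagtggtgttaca
These windows hold 27 and 24 CG dinucleotides, where the median over 27025 genes with such a window is 7.

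The Kcnh6 window also holds both parts of the RE1 element, the site of the repressor REST that is known to silence neuronal genes outside neurons. The parts searched were TTCAGCACC and GGACAGC, in this order, on either strand, with up to 10 bases between them. They are in capitals in the stretch at chr11:106007952-106007994, where 7 bases lie between them, which is not the spacing of the canonical element.
Kcnh6 RE1 parts: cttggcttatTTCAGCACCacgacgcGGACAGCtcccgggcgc
Of 27025 promoter windows 10 (0.037%) hold both parts this way, 2 of the 10 at the canonical spacing, and Kcnh6 is the 1 member among the 10. TTCAGCACC is in 0.37% of all windows and GGACAGC in 6.58%. A match of letters is not a measured binding site.

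Kcnc genes, the Shaw-related channels of fast-spiking neurons, held the largest rise. Kcnc2 read 0.757, 0.243 and 0.553 CPM in control against 2.98, 3.03 and 3.17 CPM under the Rif1-KO label. Kcnc2 had the largest log2 fold change of the tested members, 2.50 ± 0.33 (adjusted p = 2.81e-06), from 14 to 92 counts per group, and passed under all 14 alternatives. It was tested only through the Rif1-KO-labelled libraries, where it had to be higher, so its direction is no separate observation. Kcnc4 read 2.27, 1.94 and 2.32 CPM in control against 5.87, 4.95 and 5.69 CPM under the Rif1-KO label. Kcnc4, above the filter's limit in all 6 libraries, was 2.51-fold higher (log2FC 1.33 ± 0.20, adjusted p = 1.26e-05) and also passed under all 14.

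Kcnc1 stood at 2.42 ± 1.05 and 2.604 ± 0.22 CPM (log2FC 0.081 ± 0.27, adjusted p = 0.823).

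The promoters of Kcnc2 and Kcnc4, shown as those of the 2 members with the lowest adjusted p among the genes that rose, differ in CG content. RefSeq gives 4 starts for Kcnc2, of which the most upstream is used. The windows are chr10:112269767-112270066, plus strand for Kcnc2 and chr3:107458849-107459148, minus strand for Kcnc4, and capitals again mark CG.
Kcnc2: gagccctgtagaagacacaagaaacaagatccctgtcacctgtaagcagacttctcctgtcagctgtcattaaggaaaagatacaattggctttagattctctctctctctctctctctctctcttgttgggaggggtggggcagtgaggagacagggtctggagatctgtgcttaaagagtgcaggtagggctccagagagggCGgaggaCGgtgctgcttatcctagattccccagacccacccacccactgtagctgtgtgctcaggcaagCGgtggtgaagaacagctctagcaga
Kcnc4: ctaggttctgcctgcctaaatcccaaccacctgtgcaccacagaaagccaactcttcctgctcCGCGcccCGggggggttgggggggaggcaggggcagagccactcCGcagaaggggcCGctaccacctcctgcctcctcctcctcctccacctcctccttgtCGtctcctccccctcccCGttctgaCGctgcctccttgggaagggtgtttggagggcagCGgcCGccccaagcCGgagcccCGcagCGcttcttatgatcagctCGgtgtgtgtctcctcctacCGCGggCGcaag
The Kcnc2 window holds 3 CG dinucleotides and the Kcnc4 window 17. Neither window holds TTCAGCACC or GGACAGC.

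Among the Shaker-related Kcna genes, 2 of 8 were tested. Kcna2 read 0.324, 0.364 and 0.885 CPM in control against 1.36, 1.41 and 2.297 CPM under the Rif1-KO label. Kcna2, a channel of axons, rose (log2FC 1.63 ± 0.41, adjusted p = 0.00256) from 14 to 50 counts per group, and passed under all 14 alternatives. Like Kcnc2, it was tested only through the Rif1-KO-labelled libraries, where it had to be higher. Kcna7 had a log2 fold change of −0.13 ± 0.38 (adjusted p = 0.793). Kcna4 and Kcna10 had no count in any library.

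Kcng3 encodes a silent subunit, which forms channels only together with Kcnb subunits. Kcng3 read 1.62, 1.46 and 1.88 CPM in control against 2.802, 3.64 and 3.28 CPM under the Rif1-KO label and rose (log2FC 0.95 ± 0.24, adjusted p = 0.00257) under all 14 alternatives. Kcng1, the other tested silent subunit of that type, had −0.37 ± 0.35 (adjusted p = 0.407).

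Kcnd genes carry fast, inactivating currents. Kcnd3 read 0.865, 0.486 and 0.885 CPM in control against 1.26, 1.41 and 1.53 CPM under the Rif1-KO label, a rise next to the threshold (log2FC 0.88 ± 0.35, adjusted p = 0.0426). The call was lost in 10 of 14 alternatives, among others with DESeq2 (adjusted p = 0.176) and the removal of any 1 library (adjusted p from 0.0622 to 0.173). Kcnd3, too, was tested only through the Rif1-KO-labelled libraries, where it had to be higher. Kcnd1 read 16.8, 14.5 and 13.5 CPM in control against 11.8, 13.9 and 15.2 CPM under the Rif1-KO label, with overlap and no call (log2FC −0.14 ± 0.12, adjusted p = 0.358).

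Kcnq1, a channel of heart and inner ear from an imprinted locus, had −0.57 ± 0.29 (adjusted p = 0.114) and passed only without Rif1-KO replicate 1 (log2FC −0.87 at adjusted p = 0.0434). The antisense gene Kcnq1ot1 overlaps it in the annotation and is not analysed here. Kcns3, another silent subunit, had −0.35 ± 0.16 (adjusted p = 0.0753) and passed only without control replicate 2 (log2FC −0.44 at adjusted p = 0.048).

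**Figure D3:**
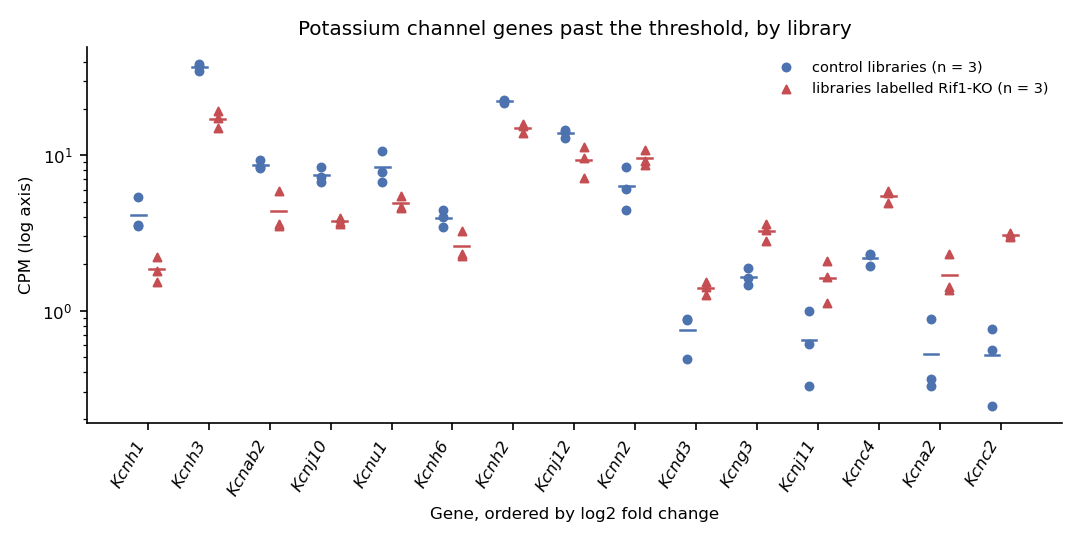
CPM in each library, on a log axis, for 15 potassium channel genes with an adjusted p under 0.05, ordered by log2 fold change; short lines are group means (n = 3 libraries each). The groups do not overlap at any of the 15, and Kcnc2, Kcna2, Kcnj11 and Kcnd3 have control means under 1 CPM.

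Of 15 inward rectifiers 4 were tested: 1 rose, 2 fell and 1 did not pass (75% called, against 50.9% of all tested genes). All 4 but Kcnj12 had a mean under 10 CPM, where 36.8% of tested genes were called. Kcnj10 read 7.24, 8.38 and 6.75 CPM in control against 3.62, 3.74 and 3.94 CPM under the Rif1-KO label. Kcnj10, the main inward rectifier of glia, fell by close to 2-fold (log2FC −0.98 ± 0.16, adjusted p = 4.44e-05). Kcnj12, a strong rectifier of heart and muscle, read 14.1, 13 and 14.5 CPM in control against 9.58, 11.3 and 7.11 CPM under the Rif1-KO label and fell (log2FC −0.56 ± 0.14, adjusted p = 0.00201). Both passed under all 14 alternatives. Kcnj11 read 0.324, 0.608 and 0.996 CPM in control against 2.08, 1.11 and 1.64 CPM under the Rif1-KO label.

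Kcnj11 forms the pore of the ATP-sensitive channel of pancreatic beta cells, and its rise (log2FC 1.32 ± 0.40, adjusted p = 0.00885) rested on 17 and 49 counts. It was lost without control replicate 1 (log2FC 0.99 at adjusted p = 0.0584) and without Rif1-KO replicate 1 (log2FC 1.07 at adjusted p = 0.0622). Kcnj11 was tested only through the Rif1-KO-labelled libraries, where it had to be higher. Kcnj4 had −0.054 ± 0.17 (adjusted p = 0.812). The 15 summed to 29.7 ± 0.466 CPM in control against 22.8 ± 1.69 CPM under the Rif1-KO label.

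Tandem-pore channels, which carry the leak current, gave no call among 3 tested genes, where 50.9% of all tested genes were called. All 3 but Kcnk5 had a mean under 10 CPM, where 36.8% of tested genes were called. Of the 14 genes 11 were removed. Kcnk5 read 47.9, 42.4 and 46.7 CPM in control against 44.3, 46.97 and 45.2 CPM under the Rif1-KO label. Kcnk5, an acid-sensitive leak channel, was the most read potassium channel gene by CPM, at 45.7 ± 2.89 and 45.5 ± 1.37 CPM. Its log2 fold change was −0.0088 ± 0.067 (adjusted p = 0.923), with the smallest standard error of the tested members. Kcnk1 read 7.79, 8.26 and 9.51 CPM in control against 8.77, 9.49 and 7.76 CPM under the Rif1-KO label (log2FC 0.029 ± 0.14, adjusted p = 0.875). Kcnk6 read 4.22, 6.32 and 6.97 CPM in control against 7.23, 6.67 and 7.66 CPM under the Rif1-KO label (log2FC 0.30 ± 0.17, adjusted p = 0.146), overlapping by 1 control library. Kcnk9, a second member from an imprinted locus, had no count.

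Of 8 pore-forming subunits grouped as calcium- or sodium-activated channels 7 were tested: 1 rose, 1 fell and 5 did not pass. That is 28.6% called, against 50.9% of all tested genes. All 7 but Kcnn1 had a mean under 10 CPM, where 36.8% of tested genes were called. Kcnu1 read 6.704, 7.78 and 10.7 CPM in control against 4.61, 4.65 and 5.47 CPM under the Rif1-KO label. Kcnu1, the channel of sperm, placed in this family by its symbol alone, fell (log2FC −0.78 ± 0.18, adjusted p = 0.00104) under all 14 alternatives. Kcnn2 read 4.43, 8.38 and 6.08 CPM in control against 9.13, 8.69 and 10.8 CPM under the Rif1-KO label. Kcnn2, a small-conductance calcium-activated channel, rose (log2FC 0.61 ± 0.18, adjusted p = 0.00686). Without control replicate 1, the lowest library, it did not pass (log2FC 0.40 at adjusted p = 0.052). Its exons overlap opposite-strand genes, first among them A330093E20Rik, with 14.2% of its stretches shared.

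Kcnn1 read 20.3, 20.2 and 19.7 CPM in control against 22.6, 20 and 19.2 CPM under the Rif1-KO label with no call (log2FC 0.045 ± 0.092, adjusted p = 0.714), and Kcnn3 had 0.079 ± 0.32 (adjusted p = 0.868). Kcnma1, the large-conductance channel, had 0.40 ± 0.29 (adjusted p = 0.27). The sodium-activated channels lay below control without passing. Kcnt2 read 9.41, 7.65 and 8.96 CPM in control against 6.78, 6.97 and 7.87 CPM under the Rif1-KO label (log2FC −0.28 ± 0.14, adjusted p = 0.104), and passed with an offset for GC content and length (log2FC −0.43 at adjusted p = 0.0116). Kcnt1 had −0.52 ± 0.26 (adjusted p = 0.0962) and passed only without control replicate 3 (log2FC −0.70 at adjusted p = 0.0472).

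Auxiliary subunits gave 1 call among 6 tested of 15 (16.7% called, against 50.9% of all tested genes). All 6 but Kcnip2 had a mean under 10 CPM, where 36.8% of tested genes were called. Kcnab2 read 9.299, 8.26 and 8.41 CPM in control against 3.52, 3.64 and 5.91 CPM under the Rif1-KO label. Kcnab2, a cytoplasmic beta subunit of Shaker-type channels, was 2.02-fold lower (log2FC −1.01 ± 0.18, adjusted p = 8.39e-05). An exon of Kcnab2 overlaps one of Gm16334 on the same strand in GENCODE's mouse annotation, so reads there may belong to either gene. The longest Kcnab2 transcript shares no 50-base stretch with another gene. The other beta subunits did not pass: Kcnab3 had 0.14 ± 0.15 (adjusted p = 0.468). Kcnab1 had 0.78 ± 0.34 (adjusted p = 0.0599) and passed with limma-voom (log2FC 0.87 at adjusted p = 0.0427) and without control replicate 1 (log2FC 1.16 at adjusted p = 0.0235).

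The Kcnip genes encode calcium-binding partners of Kcnd channels. Kcnip2 read 14.6, 14.6 and 16.04 CPM in control against 14.2, 13.6 and 12.8 CPM under the Rif1-KO label (log2FC −0.15 ± 0.10, adjusted p = 0.238), where the groups did not overlap but the test did not pass. Kcnip3 read 7.68, 6.804 and 5.97 CPM in control against 6.96, 7.88 and 5.91 CPM under the Rif1-KO label (log2FC 0.024 ± 0.16, adjusted p = 0.911). Kcnip4 had 0.28 ± 0.17 (adjusted p = 0.187) and passed only without control replicate 1 (log2FC 0.48 at adjusted p = 0.0445). None of the 4 Kcne and 4 Kcnmb genes was tested.

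**Figure D4:**
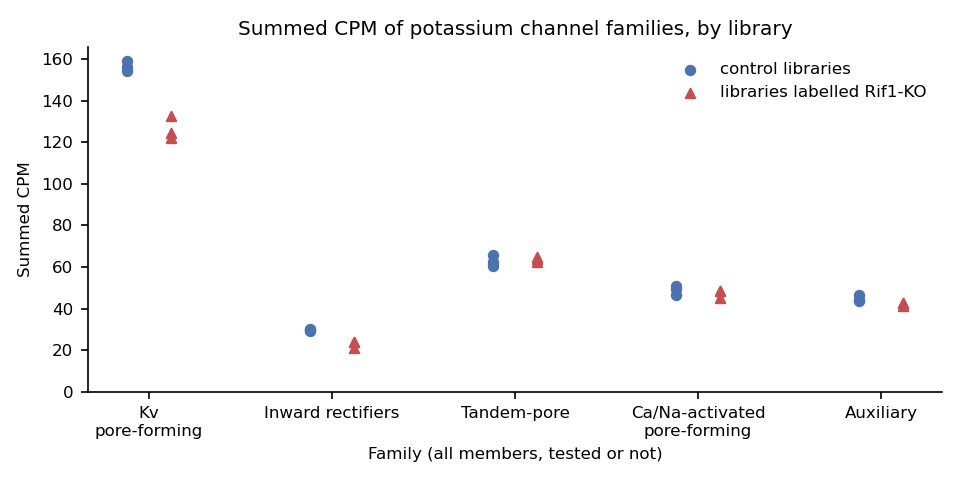
CPM summed over all members of each potassium channel family, tested or not, in each of 3 control libraries and 3 libraries labelled Rif1-KO. The groups are apart for the voltage-gated pore-forming subunits, the inward rectifiers and the auxiliary subunits, and overlap for the other 2 families.

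The 50 members removed by the filter together had 244 counts in control and 431 in the Rif1-KO-labelled libraries. They summed to 8.65, 9.23 and 9.73 CPM in the control libraries and 15.1, 12.7 and 15.1 CPM in the Rif1-KO-labelled libraries, without overlap. Their mean level was higher in the Rif1-KO-labelled libraries at 27 and lower at 15, 7 had no count and Kcnk7 had equal means to the digits kept. Genes the filter removes leaned the same way as a whole. Fitted without it, 3.83% of these 9767 genes passed as higher and 0.901% as lower. The tested members summed the other way, 334 ± 2.24 CPM in control against 288 ± 3.23 CPM under the Rif1-KO label. Which members were removed depends in part on the difference itself, since 6 tested members reached the limit throughout the Rif1-KO-labelled libraries alone.

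Some of the removed members had nearly all their counts in the Rif1-KO-labelled libraries. Kcnq5, a subunit of the slow M-current of neurons, had 1 and 30 counts in the 2 groups, a ratio of 26.4 (95% interval 4.39 to 1078). Kcnf1, a silent subunit, had 1 and 15 counts, a ratio of 13.2 (95% interval 2.03 to 556). Kcna3, a channel of T cells and neurons, had 2 and 17, a ratio of 7.49 (95% interval 1.78 to 66.8). Kcnv2, a silent subunit of photoreceptors, had 3 and 18, a ratio of 5.29 (95% interval 1.54 to 28.01). Kcnd2 had 0 and 12 counts, a ratio of 3.52 if a floor of 3 counts stands for the control group. The lower end of its 95% interval was 2.45. The ratio against the floor leaves out the counting error of the 12 counts. The intervals hold counting error alone, as no label mentions molecular identifiers and several reads may come from 1 molecule.

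In a fit of every gene with a count, 31.6% of 24017 genes passed (edgeR, adjusted over all of them). Of the removed members 7 passed, all higher, where 3.83% of the 9767 genes the filter removes passed as higher and 0.901% as lower. They were Kcnq5 (adjusted p = 3.24e-06), Kcnd2 (adjusted p = 0.00393), Kcnf1 (adjusted p = 0.0071), Kcna3 (adjusted p = 0.0102), Kcnv2 (adjusted p = 0.0181), Kcna6 (adjusted p = 0.0289) and Kcnmb4 (adjusted p = 0.0325). Kcna6 had 10 and 30 counts, a ratio of 2.64 (95% interval 1.26 to 6.06), but shares 39.9% of its stretches with other genes. Kcnmb4, an auxiliary subunit of the large-conductance channel in brain, had 15 and 38, a ratio of 2.23 (95% interval 1.199 to 4.37). It shares 12.3% of its stretches with other genes, and its exons overlap Kcnmb4os1 and Kcnmb4os2 on the opposite strand.

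For the other 16 removed members with at least 10 counts, the interval of the ratio included 1. Kcnk4 had 30 and 21 counts, Kcnj6 25 and 21, Kcns1 19 and 27, Kcnj13 17 and 23, Kcnk3 17 and 15 and Kcnk12 14 and 18. Kcne1 had 15 and 15, Kcnn4 11 and 12, Kcnj3 5 and 15, Kcnj14 6 and 11 and Kcnk2 5 and 9. Kcnmb2 had 5 and 9, Kcnip1 5 and 7, Kcnq3 4 and 7 and Kcne2 7 and 6, and Kcns2 8 and 5. A further 20 members had 1 to 9 counts over the 6 libraries: Kcnb2, Kcnj9, Kcna5, Kcna1, Kcnj8, Kcne3, Kcng4, Kcnj5, Kcnmb1, Kcnj16, Kcnj2, Kcnh5, Kcnk10, Kcnk13, Kcnk16, Kcnv1, Kcnj15, Kcng2, Kcnk7 and Kcnk18. The 7 without a count were Kcne4, Kcna4, Kcnk15, Kcnmb3, Kcna10, Kcnj1 and Kcnk9, where the floor of 3 counts allows up to 0.113 CPM over the control group and 0.0996 CPM over the other.

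Levels between genes can be compared only per length. Per kilobase of the longest GENCODE transcript, Kcnk5 had the highest mean level over the 6 libraries, 13.4 CPM per kilobase. Next came Kcnh3 at 7.34, while Kcnn1 stood at 5.03 and Kcnj12 at 4.71 CPM per kilobase. In the control libraries alone Kcnk5 stood at 13.5 and Kcnh3 at 10.02, and in the Rif1-KO-labelled libraries Kcnk5 at 13.4 and Kcnh3 at 4.66 CPM per kilobase.

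Promoter windows were found for 67 of the 92 members, 28 of them tested and 39 removed. The tested members' windows held a median of 20 CG dinucleotides (3 to 49) and those of the removed members 8 (0 to 48), against 7 over all genes. Windows of the genes that rose (5 with an entry, median 25) and of those that fell (6 with an entry, median 22.5) are too few to compare.

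The potassium gradient is kept by pumps and cotransporters. The list of potassium pumps and cotransporters held 23 genes, of which 16 were tested, 5 rose, 6 fell and 5 did not pass (11 of 16, against 50.9% of all tested genes), with a median log2 fold change of −0.082. Atp1b2, a beta subunit of the sodium pump, fell from 116 ± 5.58 to 55.8 ± 1.75 CPM (log2FC −1.06 ± 0.055, adjusted p = 6.59e-12), and Atp1b1 by 0.45 ± 0.044 on the log2 scale. Slc12a4, a potassium-chloride cotransporter, rose from 61.9 ± 2.15 to 124 ± 3.94 CPM (log2FC 1.01 ± 0.053, adjusted p = 6.70e-12).

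Partners of the channels that carry other names numbered 16, with 15 in the table and 6 tested: none rose, 3 fell and 3 did not pass (median −0.17), against 24.8% of all tested genes called lower. The kinase gene Sgk1 fell (log2FC −0.37 ± 0.045, adjusted p = 1.02e-06), as did Dpp6, a partner of Kcnd channels (log2FC −0.39 ± 0.10, adjusted p = 0.00225), and Cntnap2, which gathers Kcna channels on axons (log2FC −0.53 ± 0.22, adjusted p = 0.0478). Nedd4l had 0.15 ± 0.065 (adjusted p = 0.0573).

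Sodium, calcium and HCN channels, which carry the depolarising currents, also went both ways. Of 44 genes 24 were tested, 7 rose, 9 fell and 8 did not pass, with a median of −0.064, against 26.1% of all tested genes called higher and 24.8% lower. The calcium channel genes Cacna1b and Cacna1s rose (1.43 ± 0.13, adjusted p = 1.97e-08, and 2.91 ± 0.27, adjusted p = 2.26e-08). Scn3b, a sodium channel beta subunit, rose (log2FC 0.97 ± 0.11, adjusted p = 3.67e-07), and so did Cacna2d1, an accessory calcium channel subunit (log2FC 0.90 ± 0.11, adjusted p = 1.12e-06). Cacna1s had a control mean of 0.717 CPM and was tested only through the Rif1-KO-labelled libraries, where it had to be higher.

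Of the 9 genes for REST and its corepressors, all tested, 1 rose, 5 fell and 3 did not pass (median −0.17), where 50.9% of all tested genes were called and 24.8% called lower. Rest went from 408 ± 1.1 to 323 ± 3.85 CPM (log2FC −0.33 ± 0.043, adjusted p = 2.08e-06), Rcor2 from 102 ± 5.45 to 67.3 ± 3.85 CPM (log2FC −0.59 ± 0.058, adjusted p = 5.92e-08) and Hdac1 from 117 ± 1.29 to 89.97 ± 1.84 CPM (log2FC −0.38 ± 0.048, adjusted p = 1.79e-06), all 3 lower, while Rcor1 rose (log2FC 0.26 ± 0.063, adjusted p = 0.00179). Whether their level bears on any potassium channel gene was not tested.

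Markers of other cell types were also compared, since most members are known from nerve and muscle. Over all tested genes 26.1% were called higher and 24.8% lower. Of those with a mean under 10 CPM, 24.3% were called higher and 12.5% lower. The 11 neuron markers in the table summed to 227 to 272 CPM in control and 206 to 211 CPM in the Rif1-KO-labelled libraries, with 1 of 7 tested higher, 2 lower and Dcx without a count. Stmn2 alone made up 211 and 173 CPM of these means. The 7 neural progenitor markers summed to 41.8 to 52.5 and 103 to 111 CPM, with Nes higher (log2FC 1.12 ± 0.070, adjusted p = 8.85e-11) and Neurog2 without a count. Zic1 also passed as higher, but was tested only through the Rif1-KO-labelled libraries. The 10 heart and skeletal muscle markers summed to 4.76 to 5.95 and 7.41 to 8.59 CPM, and 2 of them were tested. Myl7 was higher (log2FC 0.68 ± 0.27, adjusted p = 0.039). Myh6 passed too, but was tested only through the Rif1-KO-labelled libraries, where it had to be higher. Among the removed muscle markers, Ckm (13 counts in control and 3 in the Rif1-KO-labelled libraries) and Myod1 (4 and 1) went the other way. The other removed muscle markers had higher means under the Rif1-KO label. The 11 fibroblast markers summed to 23.9 to 34.4 and 26.8 to 31.2 CPM, with 2 of 5 tested higher, 1 lower, 2 not passed, and Lum and Prrx1 without a count. The 8 primitive endoderm markers summed to 16.8 to 17.9 and 31.1 to 33.4 CPM, with 5 tested and called higher, of which Sox17 was tested only through the Rif1-KO-labelled libraries. Sox7, removed by the filter, went the other way, with 14 counts in control and 3 in the Rif1-KO-labelled libraries. The 7 trophectoderm markers summed to 57 to 58 and 148 to 163 CPM, with 2 of 3 tested higher, 1 not passed and Cdx2 without a count. Krt8 (22.5 and 74.2 CPM) and Krt18 (25.8 and 69.9 CPM) made up most of that sum. The part of these cell types in the potassium channel values was not tested.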

How the data were processed

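RNA was measured in 3 libraries labelled control and 3 labelled Rif1-KO, from E14 cells. The authors deposited unnormalised counts by gene symbol, with 1 table for each library. Per the submitters' processing notes, STAR and featureCounts 1.6.2 were used with mm9. Annotation, strand setting and treatment of multi-mapping reads were not given in the sources used here, which leaves counts of overlapping or similar genes uncertain. Counts were fitted with a quasi-likelihood model in edgeR 4.0.16 (R 4.3.3) on group alone, after filterByExpr and TMM scaling, and p-values were adjusted by Benjamini-Hochberg over 14250 genes with a threshold of 0.05. CPM were computed from counts and TMM-scaled library sizes.

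Members and lists were chosen with earlier results of these data known. The rule for named genes took Rif1, every called member and the 8 most read members that did not pass, library by library, the other tested members by fold change, and removed members with at least 10 counts by counts. Some of these genes are not reported here, in the text or in the plots of single genes. From each pathway list up to 4 members were named in order of adjusted p. Ratios of counts have exact 95% intervals. Exon overlap, shared 50-base stretches and transcript length came from GENCODE vM21 (GRCm38) by symbol, and promoter windows from RefSeq (GRCm38.p6). That is another build than the authors', so no coordinate was joined to the counts. The test was checked on simulated data, and 14 alternatives were run, among them DESeq2 1.42.0, limma-voom (limma 3.58.1), other scalings and filters, an offset for GC content and length, a replicate block and each library left out.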

Additional observations from a re-analysis of the deposited data

How the results depend on the processing

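Of the 17 called members 11 passed under all 14 alternatives, the other 6 lost the call under at least 1, and none changed direction; 7 members that did not pass did so under at least 1. Without a filter on low counts the number called higher was 13 in place of 7, and the members' median log2 fold change 0.041 in place of −0.13. That median was −0.092 with limma-voom and −0.077 with an offset for GC content and length. Leaving out 1 library at a time gave 5 to 7 members called higher, 9 to 11 called lower, medians from −0.15 to −0.040, and 6368 to 7099 genes called over the whole table. DESeq2 called 6 members higher and 8 lower, and 5908 genes in all against 7251. The cause of these shifts was not tested, save that the fit without a filter adds 43 members.

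The sign of the log2 fold change turned under some alternative at 8 members, none of them called. With 1 library left out at a time, Kcna7 went from −0.46 to 0.18, Kcnc1 went from −0.16 to 0.45, Kcnip3 went from −0.077 to 0.12, Kcnj4 went from −0.19 to 0.047 and had 0.037 with the offset. Likewise Kcnk1 went from −0.038 to 0.12, Kcnk5 went from −0.060 to 0.025 and had 0.055 with the offset, Kcnn1 went from −0.031 to 0.090 and Kcnn3 had −0.066 with the offset.

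Libraries with the same replicate number correlated at 0.079, −0.065 and 0.046 in their deviations from the group means, so the numbers do not pair them. With a replicate block, 6 members were called higher and 10 lower, the median was −0.14 and 7386 genes were called over the whole table. The block ended the call at Kcnd3 (adjusted p = 0.0509) and at no other member. Depth limits the set: standard errors ran from 0.067 at Kcnk5 to 0.41 at Kcna2, and 20 members had 1 to 9 counts over all libraries and 7 had none.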
